A study of Mus musculus with 14 samples.

Results

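Expression of 10 T cell and intraepithelial lymphocyte genes was examined in mouse intestine, in intestinal adenomas and in a colon carcinoma cell line. The genes were Cd3e and Cd3g (T cell receptor complex), Cd4 and Cd8a (coreceptors), Gzma, Gzmb and Prf1 (cytotoxic granule proteins), Itgae and Cd160 (adhesion to the epithelium and surface receptor) and Foxp3 (regulatory T cell factor). They were listed by name, and every non-control probe whose gene name in the scanner output equals one of them was taken. This gave 12 of the 55681 probes and 10 of the 36161 gene names on the array, with 2 probes each for Cd4 and Cd8a and 1 for every other gene. The brighter probe, by its mean over all arrays, stands for the gene, and the second probe is given where the pair differed.

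RNA of 14 samples was hybridized to 1 one-color array each. Small intestine (3 arrays) and colon (3 arrays) are labelled as whole tissue of C57BL/6J mice, and adenomas (3 arrays, macroscopic, whole tissue) and the tissue adjacent to them (2 arrays) as APCmin/+, a strain on the C57BL/6J background that carries a mutant Apc allele and develops adenomas of the intestine. By the study's sample list, the small intestine arrays come from 3 mice, but all adenoma and adjacent arrays come from 1 APCmin/+ mouse, so the spread among them is that between pieces of tissue of 1 animal. The same list places 1 colon sample under an APCmin/+ mouse, whereas its label is C57BL/6J. The CT26 arrays (3) hold RNA of a cultured mouse colon carcinoma line from a cell bank, which contains no lymphocytes. No treatment is named for any group.

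Values are given as scaled log2 levels, the log2 of the background-subtracted signal of a probe minus the 75th percentile of its array. A level of 0 thus means a signal equal to that percentile, and a step of 1 means a doubling of the signal. Levels were compared between groups for one probe at a time, and not between genes. A probe is described as well above background where the scanner software marked it so on that array. Between 46.85% and 58.21% of the probes passed that mark per array. A gene was called different where limma gave an adjusted p no higher than 0.01 and the log2 difference reached 1.2 in either direction.

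Intraepithelial lymphocytes are T cells lodged between the cells of the intestinal lining, and they are most numerous in the small intestine. Many carry CD8 and a receptor made of gamma and delta chains, and they store granzymes, proteases that are released through the pore protein perforin to kill damaged cells. The lining holds them in place through E-cadherin, the ligand of the integrin chain encoded by Itgae, and keeps them alive with interleukin 15 and butyrophilin-like proteins. T cells of the lamina propria below include CD4 helper cells and Foxp3-positive regulatory cells, which restrain the other T cells.

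RefSeq promoter windows (GRCm38.p6) were found for 8 of the 10 genes, in 10 windows. The 4 windows printed here belong to genes that were called lower in adenomas, and each is the 250 bases before the start of transcription, read 5′ to 3′ on the strand of the gene. The window of Cd8a, which was also called lower, held none of the motifs searched below and is not printed. They lie at chr9:44980432-44980681 (minus strand) for Cd3g, chr13:113100982-113101231 (minus strand) for Gzma, chr14:56262335-56262584 (minus strand) for Gzmb and chr3:96829352-96829601 (minus strand) for the first of 2 windows of Cd160.
Cd3g: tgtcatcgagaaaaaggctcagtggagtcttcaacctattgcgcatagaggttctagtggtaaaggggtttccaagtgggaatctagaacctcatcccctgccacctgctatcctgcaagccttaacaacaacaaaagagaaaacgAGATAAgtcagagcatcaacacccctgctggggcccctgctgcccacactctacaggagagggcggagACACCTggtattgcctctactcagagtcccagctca
Gzma: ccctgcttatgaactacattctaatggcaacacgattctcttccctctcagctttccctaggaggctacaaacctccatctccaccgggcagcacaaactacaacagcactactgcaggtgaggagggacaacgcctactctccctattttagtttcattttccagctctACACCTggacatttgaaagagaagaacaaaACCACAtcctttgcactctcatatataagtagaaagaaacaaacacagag
Gzmb: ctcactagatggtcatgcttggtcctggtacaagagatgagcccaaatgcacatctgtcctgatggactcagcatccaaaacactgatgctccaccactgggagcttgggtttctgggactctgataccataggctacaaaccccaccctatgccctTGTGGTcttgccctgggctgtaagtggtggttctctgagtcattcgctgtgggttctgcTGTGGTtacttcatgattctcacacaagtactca
Cd160: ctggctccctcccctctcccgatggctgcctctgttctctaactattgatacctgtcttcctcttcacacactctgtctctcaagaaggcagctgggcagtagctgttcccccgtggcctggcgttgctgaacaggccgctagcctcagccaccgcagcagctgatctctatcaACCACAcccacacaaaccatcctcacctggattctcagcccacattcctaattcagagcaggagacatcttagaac
Capitals mark matches on either strand to short motifs of factors with known roles in T cells, named for RUNX, ETS, GATA and T-box proteins, and to the TATA box. The letters searched for RUNX factors were TGTGGT. Those of ETS factors were GGAAGT, the GATA factors had AGATAA as their letters, and T-box factors had AGGTGT. The TATA box was searched as TATAAA. A base may belong to more than 1 motif. The RUNX letters occurred once in the Gzma window, 50 to 45 bases before the start, and at 2 places in Gzmb, 93 to 88 and 34 to 29 bases before it. They were present in 5 of the 10 windows of these genes and in 14% of all 32851 windows of the same length. The T-box letters were present in 4 of 10 and in 11.8%, the ETS letters in 3 of 10 and in 19.7%, the GATA letters in 2 of 10 and in 9.99%, and the TATA letters in 1 of 10 and in 12.4%. A match is a description of the letters and not a binding site, and the number of windows is small.

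In 7 genes the tissues stood in one order. For Cd3e, Cd3g, Cd4, Cd8a, Gzma, Gzmb and Cd160, every small intestine array was above both adjacent arrays, and both adjacent arrays were above every adenoma array. The same order was found in 10.7% of the 22089 genes tested between adenomas and small intestine, and in 61.1% of the 2457 called lower there. Against healthy small intestine, 6 of the 10 genes were called lower in adenomas (Cd160, Gzma, Cd3g, Cd4, Cd8a and Gzmb) and 0 were called higher, where 11.1% of all genes tested were called lower and 11.3% higher. The median log2 difference of the 10 genes was -2.57, beside -0.15 over all genes. Each slide held arrays of both groups, and the 6 called genes differed by -3.76 to -2.52 within slide 1 (2 against 2 arrays) and by -3.60 to -1.99 within slide 2 (1 against 1). In bulk tissue, fewer cells of a type and less RNA per cell cannot be told apart.

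**Figure D1:**
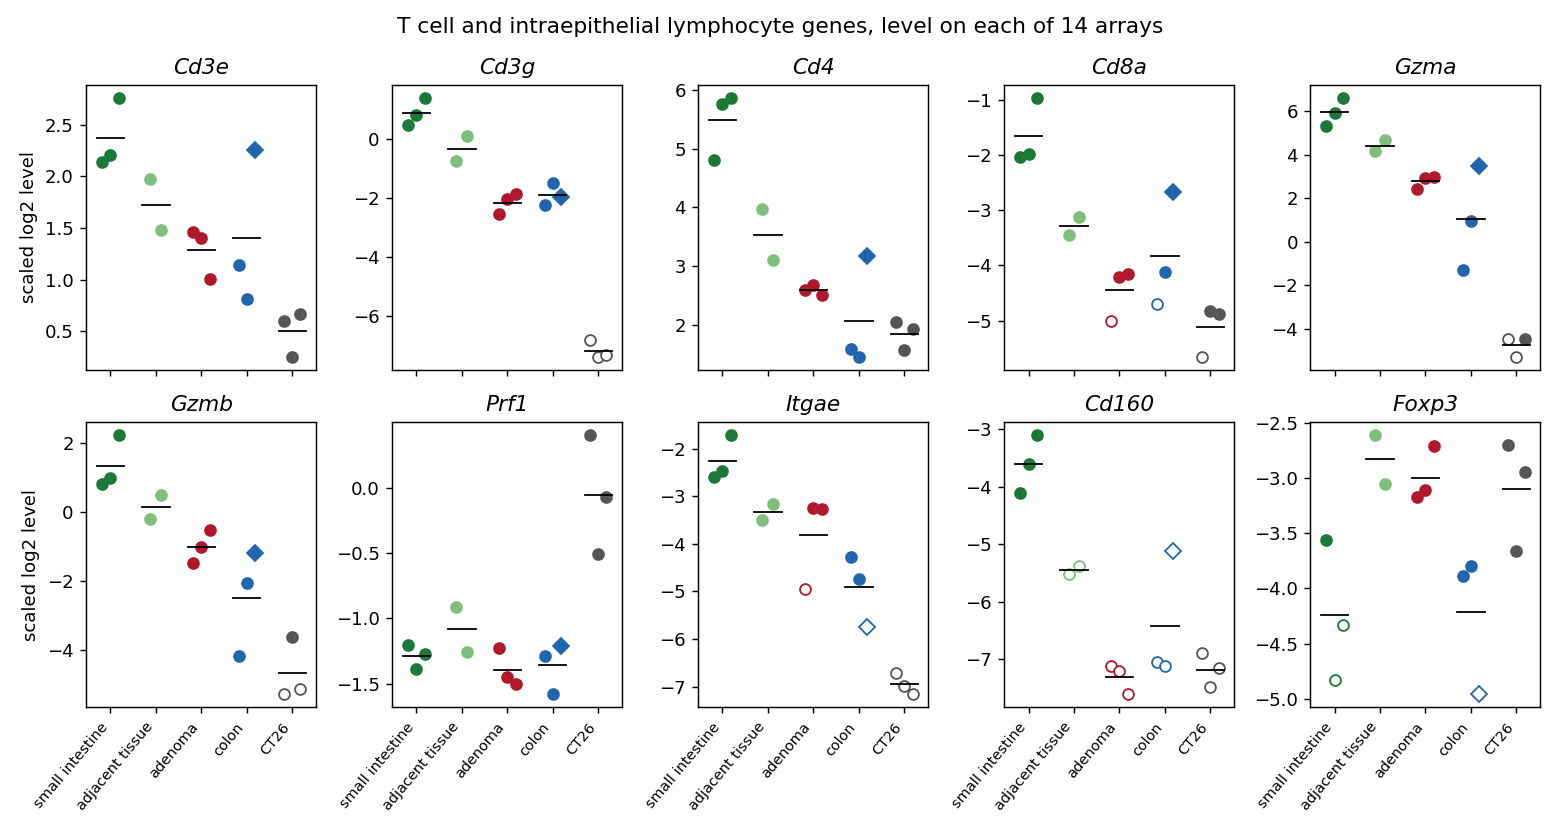
Scaled log2 level of each of the 10 genes (y axis, one panel per gene with its own scale) on each array, by group (x axis), with filled points well above background, open points not, a line at the group mean and a diamond for colon replicate 3. In 7 panels the small intestine points lie above the adjacent points and these above the adenoma points, while Prf1 lies between -1.58 and -0.91 in all tissues and Foxp3 is lowest in small intestine and colon.

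The 2 chains of the T cell receptor complex differed in how far they fell. CD3 epsilon and CD3 gamma are signalling chains that every mature T cell carries, and their genes are close neighbors on chromosome 9. Cd3g stood at 0.47, 0.82 and 1.40 on the 3 small intestine arrays, at -0.76 and 0.12 in adjacent tissue and at -2.53, -2.05 and -1.88 in adenomas. No array of one of these groups reached into another. The probe lies at chr9:44777868-44777927 (mm9, the build of the array design). Adenomas were 8.31-fold below small intestine (log2 difference -3.05, SE 0.288, limma adjusted p = 0.000328). On the colon arrays Cd3g read -2.24, -1.48 and -1.97, within the range of adenomas or just above it. The probe was not well above background on any CT26 array.

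Cd3e read 2.14, 2.21 and 2.76 in small intestine, 1.97 and 1.48 in adjacent tissue and 1.46, 1.40 and 1.01 in adenomas. The groups were again apart, yet the 2.11-fold decrease in adenomas (log2 difference -1.08, SE 0.231, limma adjusted p = 0.00798) passed the threshold on p and not that on fold change. The colon arrays spanned 0.81 to 2.26 and overlapped small intestine, adjacent tissue and adenomas. In CT26 the Cd3e probe read 0.60, 0.25 and 0.67 and was well above background on all 3 arrays, although a cultured line holds no T cells. Where that signal comes from, and its part in the tissue levels, was not tested.

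Both coreceptors were called lower in adenomas. CD8 alpha marks cytotoxic T cells and most intraepithelial lymphocytes. Cd8a read -2.04, -1.97 and -0.96 in small intestine, -3.45 and -3.12 in adjacent tissue and -5.00, -4.21 and -4.15 in adenomas, with no overlap. It was well above background on 2 of 3 adenoma arrays and on 2 of 3 CT26 arrays, and the decrease was therefore at least 6.66-fold (log2 difference -2.80, SE 0.364, limma adjusted p = 0.00111). The second Cd8a probe gave at least 9.23-fold (log2 difference -3.22, SE 0.315, limma adjusted p = 0.000376). Both probes entered this test through small intestine alone. The order of the groups was the same for both probes, and the second was not well above background on any CT26 array.

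CD4 is the coreceptor of helper and regulatory T cells. Cd4 read 4.81, 5.76 and 5.86 in small intestine, 3.97 and 3.11 in adjacent tissue, and 2.60, 2.68 and 2.51 in adenomas, which were the most uniform group. Adenomas were 7.35-fold below small intestine (log2 difference -2.88, SE 0.291, limma adjusted p = 0.000427). The second Cd4 probe was dim throughout. It rose well above background on 1 of 3 adenoma arrays and on 2 of 3 in small intestine, differed by -0.65 on the log2 scale and was not tested. The brighter probe was well above background on all 3 CT26 arrays as well, at 2.05, 1.58 and 1.94, a level that overlapped that of colon. The Cd4 call thus rests on 1 probe that also gave signal in a line without T cells, and the source of that signal was not tested.

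Among the granule genes, both granzymes were called lower in adenomas and perforin was not. Granzyme A and granzyme B are serine proteases that enter target cells and start their death. Gzma read 5.34, 5.93 and 6.62 in small intestine, 4.16 and 4.68 in adjacent tissue and 2.43, 2.92 and 2.98 in adenomas. Every step was free of overlap. The probe lies at chr13:113884035-113884094 (mm9), and adenomas were 9.10-fold below small intestine (log2 difference -3.19, SE 0.337, limma adjusted p = 0.000505). In CT26, Gzma was at -4.49, -5.31 and -4.47 and well above background on 1 of 3 arrays.

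Gzmb read 0.83, 0.99 and 2.23 in small intestine, -0.20 and 0.50 in adjacent tissue and -1.47, -1.0 and -0.51 in adenomas. The third small intestine array was well above the other two, but no group reached into the next. The decrease in adenomas was 5.09-fold (log2 difference -2.35, SE 0.418, limma adjusted p = 0.00389). It lost its call without adenoma replicate 1 (log2 difference -2.11) and without adenoma replicate 2 (-2.34). Over the 11 tissue arrays, Gzma and Gzmb had a Pearson correlation of 0.982, the highest of the 45 pairs among the 10 genes. These arrays fall into groups, so this describes the group differences as much as anything within a group.

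Prf1, which encodes perforin, spanned less than 1 log2 unit in tissue. Its arrays ranged from -1.39 to -1.2 in small intestine, from -1.26 to -0.91 in adjacent tissue, from -1.50 to -1.23 in adenomas and from -1.58 to -1.21 in colon. Adenomas differed from small intestine by -0.11 on the log2 scale (SE 0.159, limma adjusted p = 0.588), and their arrays overlapped. The highest values were those of CT26, at 0.40, -0.51 and -0.07. Every CT26 array was above every tissue array, in a line without lymphocytes, and the source of this signal was not tested.

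Itgae and Cd160 mark lymphocytes of the epithelium. Itgae encodes CD103, the integrin alpha chain that binds E-cadherin, and its levels were -2.60, -2.48 and -1.72 in small intestine, -3.50 and -3.17 in adjacent tissue and -4.94, -3.24 and -3.28 in adenomas. The first adenoma array was not well above background and set the spread of its group, and the other two overlapped with adjacent tissue. The difference between adenomas and small intestine (log2 difference -1.55, at least 2.85-fold, SE 0.491) missed the threshold, with a limma adjusted p of 0.0338. The Itgae probe entered this test through small intestine alone. Cd160 encodes a receptor of intraepithelial CD8 cells and natural killer cells, and small intestine was the one group with the probe well above background, at -4.10, -3.61 and -3.10. It read -5.51 and -5.37 in adjacent tissue and -7.11, -7.21 and -7.61 in adenomas, so the decrease was at least 2.73-fold (log2 difference -3.70, SE 0.284, limma adjusted p = 0.000164). The probe entered this test through small intestine alone.

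Foxp3 had its lowest means in small intestine and colon. It encodes the transcription factor that defines regulatory T cells, and it read -3.56, -4.83 and -4.33 in small intestine, where 1 of 3 arrays was well above background, but -2.61 and -3.05 in adjacent tissue and -3.17, -3.11 and -2.71 in adenomas, where all were. The small intestine arrays lay below all 5 APCmin/+ arrays. The difference between adenomas and small intestine, at least 2.01-fold (log2 difference 1.24, SE 0.33), had a limma adjusted p of 0.0182 and was not called, and the probe entered the test through adenomas alone. Without small intestine replicate 1 it was called, at a log2 difference of 1.58, and leaving out other single arrays gave values down to 0.95. With all arrays kept, the alternative fits gave 0.31 to 1.3, with a limma adjusted p up to 0.107 and no call. CT26 read -2.70, -3.66 and -2.94, well above background on all 3 arrays and overlapping with adenomas, and the source of this signal was not tested.

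Adjacent tissue lay between small intestine and adenomas for most of these genes, and neither step alone was called. Against small intestine, 8 of the 10 genes were lower in adjacent tissue, from -1.94 (Cd4) to -0.64 (Cd3e), and Prf1 (0.20) and Foxp3 (1.41) were higher. Limma called 0 of the 10, where 0.00924% of the 21634 genes tested were called higher and 0.0% lower. The adjusted p of Cd160, the lowest, was 0.0542, and at an unadjusted p under 0.05 there were 7 genes lower and 1 higher, beside 17.9% and 12.8% of all genes. On the scale from small intestine (0) to adenomas (1), the adjacent mean stood at 0.4 for Cd3g, 0.484 for Gzma, 0.496 for Cd160, 0.513 for Gzmb, 0.583 for Cd8a, 0.596 for Cd3e and 0.673 for Cd4.

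Between adenomas and the adjacent tissue of the same mouse, all 9 genes tested were lower in adenomas, from -1.83 (Cd3g) to -0.17 (Foxp3), and Cd160 was too dim to be tested. None was called in either direction by limma, where 1.78% of the 22195 genes tested were called lower and 2.4% higher. At an unadjusted p under 0.05 there were 5 genes lower and 0 higher, against 19.9% of all genes lower. Gzma (3.13-fold, log2 difference -1.64, SE 0.253, adjusted p = 0.013) and Cd3g (3.57-fold, log2 difference -1.83, SE 0.327, adjusted p = 0.0188) came nearest. The second Cd8a probe was called by itself (at least 4.58-fold, log2 difference -2.21, limma adjusted p = 0.00917), whereas the first gave -1.17. Both Cd8a probes entered this test through adjacent tissue alone. The comparisons of these 3 groups share arrays, and their values are therefore set side by side and not counted as separate evidence.

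**Figure D2:**
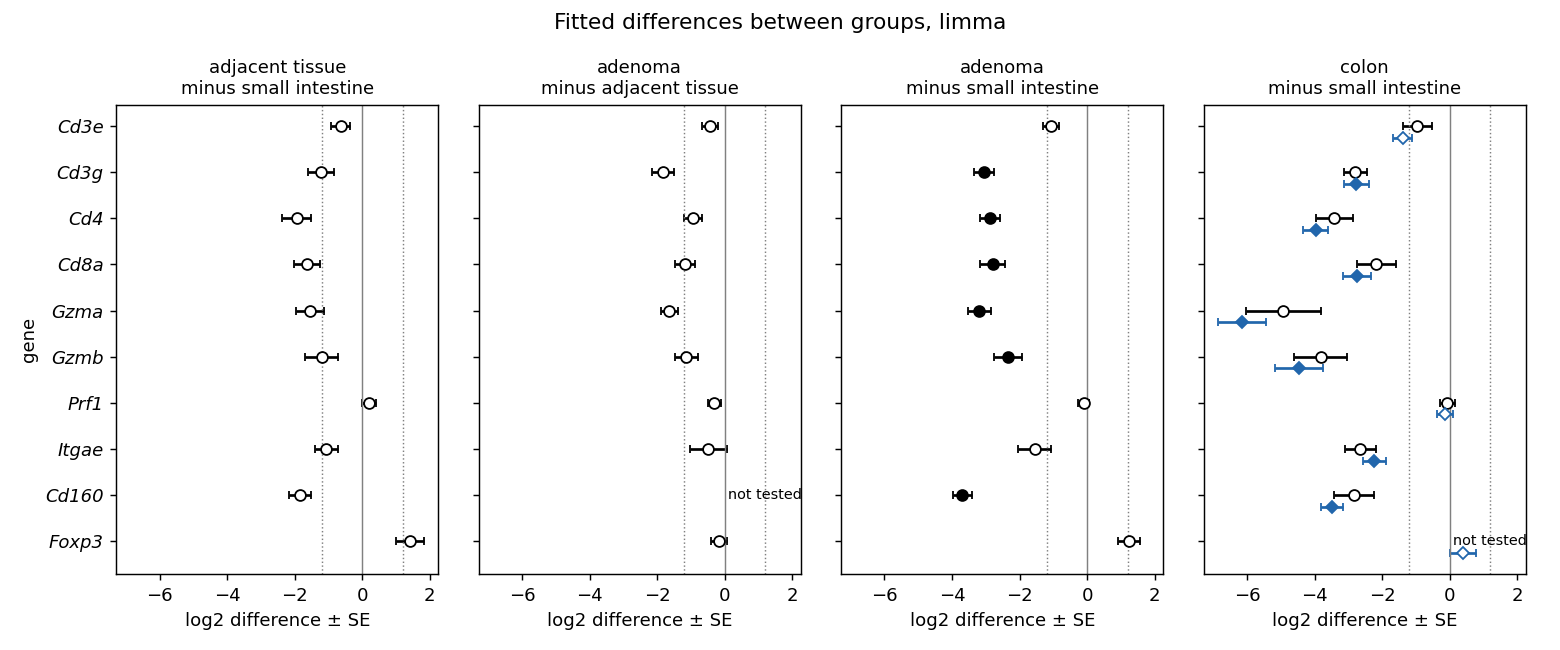
Fitted log2 difference with its standard error (x axis) for each gene (y axis) in 4 comparisons, with filled points called, open points not called and dotted lines at the fold threshold. In the colon panel circles use all 3 colon arrays and blue diamonds leave out colon replicate 3, which moves the count of called genes from 0 to 7.

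Colon replicate 3 went against its label. The list of 10 small intestine enterocyte markers had a median level of 6.4 on this array, near that of small intestine (6.59 to 8.81), beside -2.38 and -2.16 on the other colon arrays, and the 10 colonocyte markers had a median of -0.44 beside 5.30 and 5.30. It was also the array with the fewest probes well above background. For each comparison with colon, the count of called genes of the set is therefore given with and without it. Counts at an unadjusted p and tests of marker lists use all 3 colon arrays.

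In colon, the levels of these genes were low and uneven. Gzma read -1.29, 0.95 and 3.47 and Gzmb -4.17, -2.06 and -1.19, Cd4 read 1.59, 1.46 and 3.17, and Cd8a -4.69, -4.12 and -2.66, and in each of these genes replicate 3 was the highest colon array. It was the lowest for Itgae (-4.27, -4.73 and -5.74) and for Foxp3 (-3.89, -3.80 and -4.96). With all 3 colon arrays limma called 0 of the 9 genes tested against small intestine, where 0.00484% of 20642 genes were called lower and 0.00484% higher, although all 9 were lower and Gzma was 30.3-fold lower on average (log2 difference -4.92, SE 1.12, adjusted p = 0.0882). At an unadjusted p under 0.05, 7 were lower and 0 higher, beside 13.5% and 10.4% of all genes.

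Without colon replicate 3, 7 of 10 genes were called lower in colon than in small intestine (Cd3g, Cd4, Cd8a, Gzma, Gzmb, Itgae and Cd160), where 3.9% of 22596 genes were called lower and 3.33% higher. Gzma was then 70.3-fold lower (log2 difference -6.14, SE 0.703, limma adjusted p = 0.00366), Gzmb 22.1-fold (limma adjusted p = 0.00998), Cd4 15.5-fold (limma adjusted p = 0.00198), Cd3g 6.77-fold (limma adjusted p = 0.00621) and Itgae 4.69-fold (limma adjusted p = 0.00924). In this fit Cd8a and Cd160 entered the test through small intestine alone. The median level of the 10 B cell markers was -1.71 and -0.89 on these 2 colon arrays and 1.05 on replicate 3, with 9, 10 and 10 of them well above background, against -4.59 to -4.11 in small intestine with 4 to 8. With all 3 colon arrays 9 of these markers could be tested and 0 were called. The part of B cells in the levels of T cell genes in colon was not tested.

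No gene of the set was called between adenomas and colon. Of the 7 genes tested, limma called 0, where 1.63% of 21859 genes were called lower and 2.07% higher. Foxp3 was the one gene with an unadjusted p under 0.05 (log2 difference 1.22, limma adjusted p = 0.0796), and its adenoma arrays lay above every colon array. At that unadjusted threshold, 3285 of the 21859 genes were higher in adenomas and 3089 were lower. Gzma (1.74, SE 1.12) and Gzmb (1.48, SE 0.76) were higher in adenomas on average, with arrays that overlapped. Without colon replicate 3 the count was 0 as well, with Gzma at 2.95 (limma adjusted p = 0.0224) and Cd4 at 1.08 (limma adjusted p = 0.00559), below the fold threshold.

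In CT26 cells some of the probes were at background and others were not. Cd3g was at least 10.4-fold lower in CT26 than in colon (log2 difference -5.29, SE 0.331, limma adjusted p = 1.4e-05) and Gzma at least 53.9-fold lower (log2 difference -5.80, SE 1.05, limma adjusted p = 0.00276). Both entered the test through colon alone, since Cd3g was well above background on 0 of 3 and Gzma on 1 of 3 CT26 arrays, and Gzma lost its call without any one of the 3 CT26 arrays. They were 2 of the 7 genes tested, where 16.2% of 21676 genes were called lower and 21.0% higher. Without colon replicate 3 Itgae could be tested too, and 3 of 8 genes were called lower, namely Cd3g, Gzma and Itgae, which also entered through colon alone. The shares of 16.2% and 21.0% belong to the fit with all 3 colon arrays, and those of the fit without replicate 3 are not given. With all arrays Cd160, Itgae and Cd8a had dim arrays in both groups and were not tested. The probes of Cd3e, Cd4, Prf1 and Foxp3 were well above background on all 3 CT26 arrays. None of these passed the thresholds against colon, with log2 differences of -0.90, -0.22, 1.30 and 1.11. Leaving out colon replicate 3 turned the difference of Cd4 to 0.33. Epithelial markers were low in CT26 too, since all 8 were called lower than in colon.

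Other genes of T cells were examined by list. Of 23 genes of T cell receptor signalling, 17 could be tested between adenomas and small intestine, and 5 were called lower and 2 higher, with a median log2 difference of -0.49 beside -0.15 for all genes. Over all genes 11.1% were called lower and 11.3% higher, so the 2 higher of 17 are near that share. Among those called lower were Cd3d, a further CD3 chain (6.68-fold, limma adjusted p = 0.000384), Skap1, an adaptor of the receptor (4.74-fold), and Cd8b1, the partner chain of CD8 alpha (at least 3.76-fold, tested through small intestine alone). Cd8b1 did not share the order of Cd8a. It was not well above background on either adjacent array (-6.73 and -5.79), and these overlapped with adenomas (-6.07 to -4.59). Tcf7, which encodes the transcription factor TCF1 of T cells and is also a target of Wnt signalling in epithelium, was 7.77-fold higher (limma adjusted p = 0.000139), and Fyn, a kinase found in many cell types, at least 2.55-fold, tested through adenomas alone. The shared kinases and adaptors Lck, Zap70 and Lat differed by -0.49, 0.13 and -0.53 on the log2 scale and were not called. Lck was well above background on all 3 CT26 arrays, at 1.23 to 2.56, and the source of that signal was not tested. Cd2 ranged from -3.24 to -2.76 in small intestine and from -2.26 to -1.95 in adenomas. Thy1 had means of 1.35 and 1.55 there, and Bcl11b 0.51 and 0.79. Cd2, Thy1 and Bcl11b were not called, and none was well above background on any CT26 array.

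Of 25 genes of intraepithelial and cytotoxic lymphocytes, 21 could be tested, and 9 were called lower in adenomas and 0 higher, beside 11.1% and 11.3% of all genes, with a median log2 difference of -1.13. Ccl5, a chemokine that cytotoxic T cells store and release, was 11.2-fold lower (limma adjusted p = 0.000231). In CT26 the Ccl5 probe was well above background on all 3 arrays, at 1.99 to 5.10, above the adenoma arrays (0.78 to 1.49). The source of that signal was not tested. Xcl1, a chemokine that attracts dendritic cells, was at least 10.3-fold lower, Cd96, a receptor of T and natural killer cells, at least 8.72-fold, and Fasl, the death ligand of cytotoxic cells, at least 5.38-fold, and these 3 were tested through small intestine alone. In the same list Gzmk, Gzmm, Fcer1g and Tyrobp differed by 0.35, 0.19, 0.32 and 0.02 on the log2 scale and were not called. Other genes of the list were higher on every adenoma array than on every small intestine array, yet not called. Gzmc ranged from -5.04 to -3.68 in small intestine and from -3.29 to -2.87 in adenomas. For Eomes the ranges were -6.23 to -4.82 and -4.33 to -4.15, and for Serpinb9 -2.63 to -1.57 and -1.52 to -1.25. Gzmc and Eomes entered the test through adenomas alone. Against adjacent tissue, where 1.78% of all genes were called lower, 2 of 21 were, Klrd1 (4.0-fold, limma adjusted p = 0.00851) and Ctsw (3.05-fold, limma adjusted p = 0.00906).

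Of 12 genes of regulatory T cells, 8 could be tested, and 3 were called higher in adenomas than in small intestine and 0 lower, beside 11.3% and 11.1% of all genes, with a median log2 difference of 0.69. The other 5 differed by -0.83 (Ikzf2) to 0.72 (Tnfrsf4) and were not called. Those called higher were Tnfrsf18, which encodes the receptor GITR (4.01-fold, limma adjusted p = 0.000258), and Lrrc32, which presents latent transforming growth factor beta (2.84-fold). Il2ra, the high-affinity chain of the interleukin 2 receptor, was called higher too (at least 1.90-fold). Il2ra was dim on all but 1 of the 3 small intestine arrays and was tested through adenomas alone. Il10, Ctla4, Tigit and Gpr83 were not well above background on any array of either group and were not tested. Tnfrsf18 was called higher against adjacent tissue as well, where 2.4% of all genes were (2.41-fold, limma adjusted p = 0.00664).

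Epithelial genes that attract, hold or sustain intraepithelial lymphocytes were lower in adenomas in 6 of 11 cases. Of the 11 on the array, all could be tested, and 6 were called lower and 1 higher, beside 11.1% and 11.3% of all genes, with a median log2 difference of -2.11. Btnl2 (9.41-fold) and Btnl6 (8.19-fold) belong to the butyrophilin-like family, H2-T3 (9.37-fold) encodes the thymus leukemia antigen, a ligand of CD8 alpha homodimers, and Il15 was 6.96-fold lower, each with a limma adjusted p between 0.000153 and 0.00213. Ccl25, the chemokine that draws T cells to the small intestine, fell from 8.47 to 6.05 (5.33-fold). Cdh1, which encodes E-cadherin, differed by -0.24 and was not called. Tgfb1 was 5.19-fold higher. Between adenomas and adjacent tissue 4 of the 11 were called lower, beside 1.78% of all genes, namely Btnl6 (6.02-fold), H2-T3 (4.45-fold), Ccl25 (3.61-fold) and Il15 (3.42-fold). Of the 9 T cell and intraepithelial lymphocyte genes tested there, 0 were called, although all 9 were lower.

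**Figure D3:**
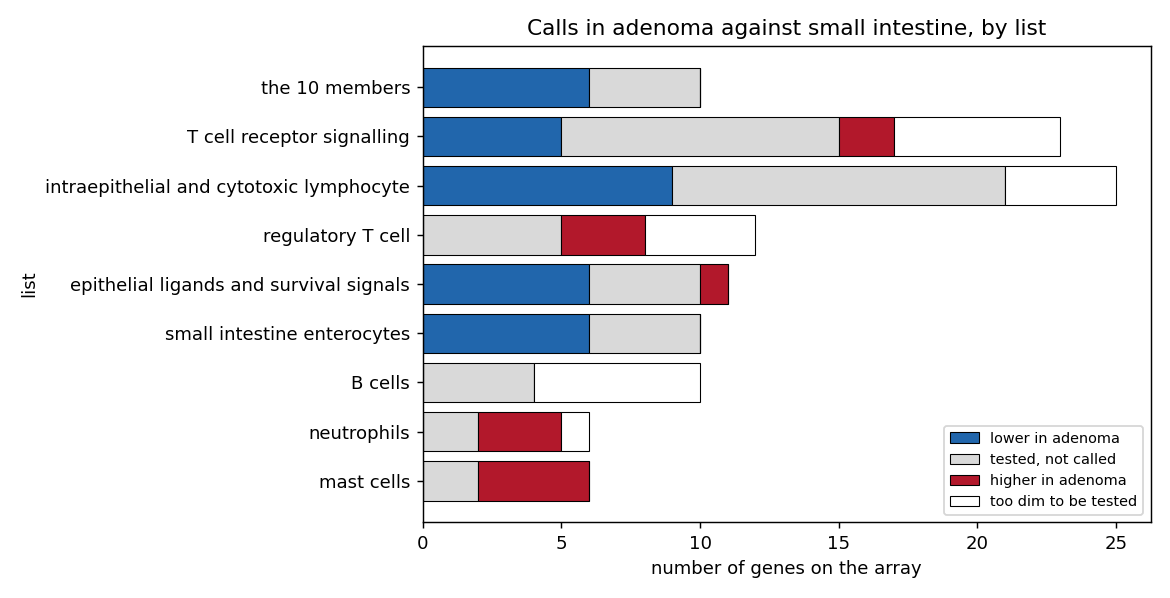
Number of genes on the array (x axis) in each list (y axis), split into those called lower, not called, called higher and too dim to be tested in adenomas against small intestine. Calls in the lymphocyte and enterocyte lists are mostly lower (9 of 21 tested intraepithelial and cytotoxic lymphocyte genes), and calls in the regulatory T cell, neutrophil and mast cell lists are all higher.

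Markers of other cells moved between the same groups. Over all genes 11.1% were called lower in adenomas than in small intestine and 11.3% higher. Of 10 enterocyte markers 6 were called lower in adenomas, with median levels of 6.59 to 8.81 in small intestine, 6.71 and 6.91 in adjacent tissue and 5.15 to 5.98 in adenomas. Of 8 markers of epithelium in general, 3 were called lower and 1 higher. Neutrophil markers (3 of 5 tested) and mast cell markers (4 of 6) were called higher, with none lower, and the median of the neutrophil list went from -4.37 to -3.80 in small intestine to 0.70 to 0.72 in adenomas. The median of the 9 macrophage markers went from -0.49 to -0.43 in small intestine and from -0.42 to 0.45 in adenomas, with 1 of 8 called higher and 1 lower. Of 10 B cell markers 4 could be tested and 0 were called, as were 0 of 3 dendritic cell markers, and 1 of 6 smooth muscle markers was called lower. Of 8 colonocyte markers tested, 3 were higher and 3 lower. Klrg1, the 1 natural killer cell marker tested, was called higher, at most 1 of the 6 was well above background on any array, and Ncr1 passed on 0 of 3 adenoma arrays and on 2 of 3 in small intestine. The part of these changes in tissue makeup in the levels of the T cell genes was not tested.

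**Figure D4:**
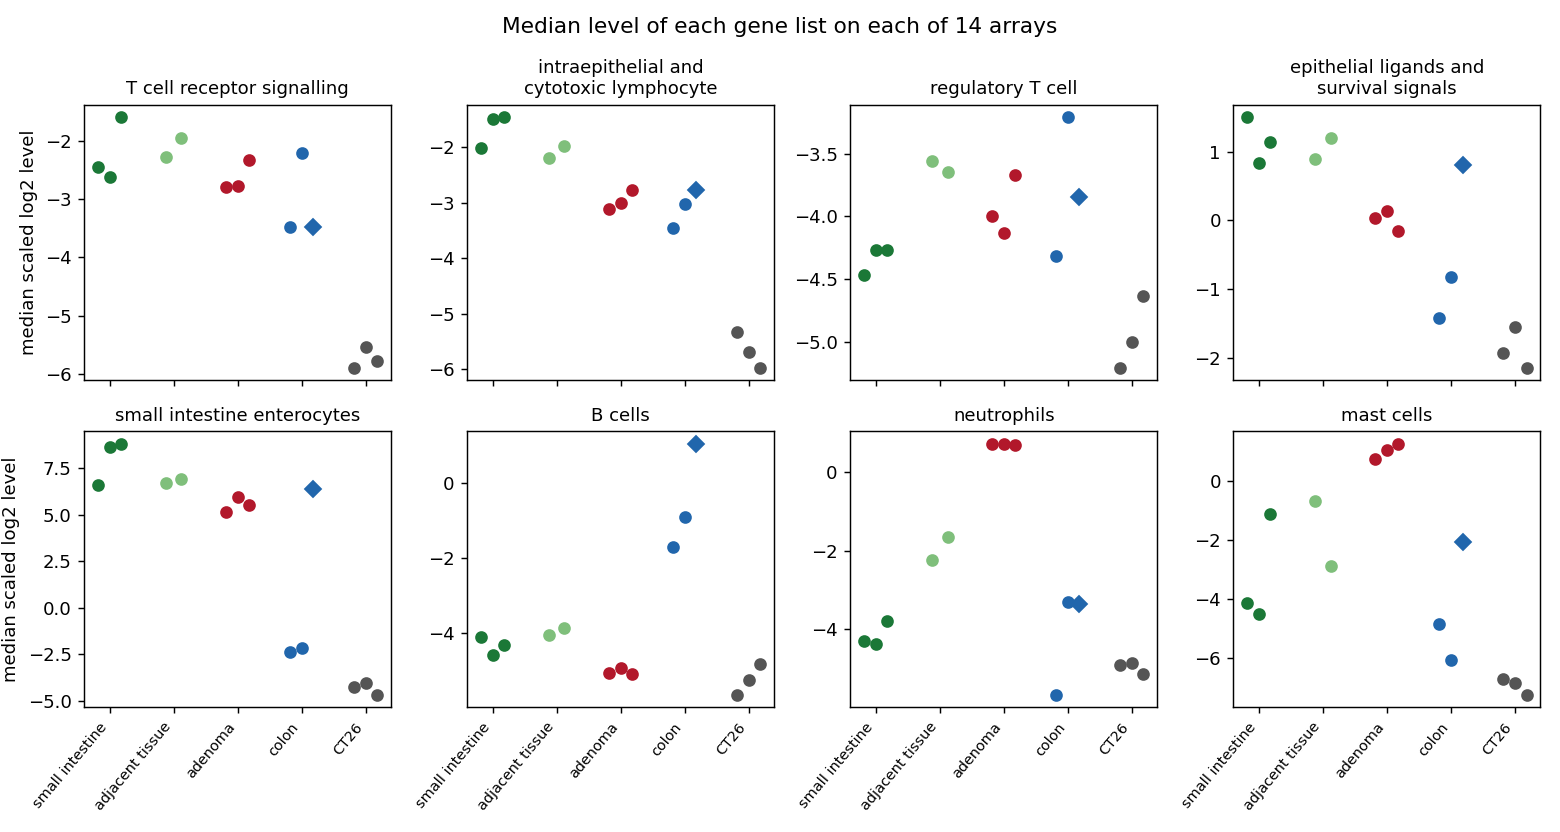
Median scaled log2 level of each of 8 gene lists (y axis, own scale per panel) on each array, by group (x axis), with a diamond for colon replicate 3. The intraepithelial and cytotoxic lymphocyte list is higher on all small intestine arrays (-2.02 to -1.46) than on all adenoma arrays (-3.12 to -2.78), the neutrophil and mast cell lists are highest in adenomas, and the B cell list is highest in colon.

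The genes whose levels followed these most closely over the 11 tissue arrays were sought among 18145 genes, as a description. For Cd3g they were Mycbpap (Pearson r = 0.986), Usp40 (0.983), the transcript ENSMUST00000103558 (0.978), 1300002E11Rik (0.978) and 1700029I15Rik (0.973). For Gzma the closest was the unnamed probe A_55_P2011341 (r = 1), which overlaps the Gzma probe by 54 of 60 bases on chromosome 13 in the array's own coordinates and is thus a second reading of the same transcript. Ddhd2 (0.991), Pcsk5 (0.986), Proz (0.983) and Nab2 (0.98) followed. For Cd4, BB667892 (0.993), Vat1 (0.984) and AU040972 (0.981) were among the 5 closest, and the other two were probes named by their coordinates. All these arrays share the same 4 tissue groups, so a high correlation marks a like pattern across groups and no more.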

How the data were processed

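RNA of 14 samples was measured on one-color Agilent 60-mer mouse arrays. The authors scanned them with Agilent Feature Extraction, and the deposited scanner files hold the processed signal intensity of each spot after background subtraction. The authors also deposited a table of log2 values, used here as an alternative. Its columns of fold changes and p-values of the study's own comparisons were not used, and 28 columns of per-sample values in all were not used.

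Control and outlier spots were left out, spots of a probe were averaged, and the log2 intensity minus the 75th percentile of the array was fitted with limma 3.58.1 (R 4.3.3, lmFit and eBayes) for each pair of groups. A probe was tested if all arrays of either group had it well above background, with Benjamini-Hochberg adjustment over all of them. The fit was tested on simulated data. The number of arrays and the signal over background limit the precision.

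A bound ("at least") compares the brighter mean with the lowest signal well above background, or with the dim probe where that was higher. Adjacent and adenoma arrays come from 1 mouse, so their p-values measure the spread between pieces. No source pairs samples by replicate number. Correlations of deviations between same-numbered arrays were -0.0946 to 0.116 for adenomas and small intestine, 0.141 and 0.291 for adjacent tissue and small intestine (2 pairs), 0.0123 to 0.238 for colon and small intestine, and -0.322 to 0.0862 for the other comparisons, so no comparison with 3 pairs had all of them over 0.1 and the numbers were not used as pairs.

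The 10 genes and the other lists were chosen with earlier results of these data known. From other lists the called genes with the largest change were named, up to 4, and genes named as not called were chosen after their values were seen. Genes of like pattern were the 5 with the highest Pearson correlation to Cd3g, Gzma and Cd4. The alternatives were the authors' table, normexp background (offset 50), quantile normalization, other filters, thresholds and fits, blocks for slide and replicate number, and leaving out each array. Promoters of Cd4 and Itgae and protein sequences were not used here. One gene of the T cell receptor signalling list is counted but not reported by name here.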

Additional observations from a re-analysis of the deposited data

How the results depend on the processing

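The count of 6 genes called between adenomas and small intestine, all lower, ranged from 4 to 8 over the alternatives, and from 5 to 7 when single arrays were left out. The 7 held 6 lower and Foxp3 higher (without small intestine replicate 1), and the 8, at an adjusted p of 0.05, held 7 lower and Foxp3 higher. At an adjusted p of 0.05, 12.9% of all genes tested were called lower there and 13.1% higher. The count was 4 with a fit of all 5 groups, in which Gzma and Gzmb lost their calls (limma adjusted p = 0.0129 and 0.0203). It was also 4 where a probe had to be well above background in both groups, a rule that left out Cd8a and Cd160. Cd160 was not called with the authors' table (log2 difference -0.85) or with normexp background (-1.13). The counts of 0 for adjacent tissue against small intestine and for adenomas against colon were 0 in every alternative run. For adenomas against adjacent tissue the count of 0 became 1 with the authors' table, 2 with normexp background, 1 with an intensity trend, 2 at an adjusted p of 0.05 and 1 where any probe of a gene could be called. Of all genes tested there, 5.07% were called lower and 4.56% higher at an adjusted p of 0.05. For colon against small intestine the count of 0 became 6 with all 5 groups in 1 fit and 1 at an adjusted p of 0.05, and ranged from 0 to 7 when single arrays were left out, with 7 reached without colon replicate 3. Of all genes tested there, 0.32% were called lower and 0.218% higher at an adjusted p of 0.05. For CT26 against colon the count of 2, both lower, became 1 with the authors' table (Cd3g). It became 1 where both groups had to be well above background, which removed both genes and left Prf1, called higher. It became 4 at an adjusted p of 0.05 (3 lower and Prf1 higher), beside 18.9% of all genes lower and 26.4% higher. It ranged from 1 to 3 when single arrays were left out, with 1 (Cd3g) without any one CT26 array. Quantile normalization and the fit of all 5 groups each kept Cd3g and Gzma lower and added Prf1, called higher. The cause of these shifts was not tested.

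With the replicate number as a block the counts were 6 for adenomas against small intestine, 0 for adenomas against adjacent tissue, 0 for colon against small intestine and 2 for CT26 against colon, and the block changed none of the 6 counts. The slide as a block gave 6 for adenomas against small intestine.

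Differences that changed sign were all uncalled. For adenomas against adjacent tissue, Itgae became 0.07 with the block by title numbers and ranged from -0.78 to 0.07 when single arrays were left out, and Foxp3 ranged from -0.39 to 0.05. Leaving out single arrays, Prf1 ranged from -0.14 to 0.04 in colon against small intestine, and Cd4 from -0.52 to 0.33 in CT26 against colon, with 0.33 without colon replicate 3. For adenomas against colon, Cd3e became 0.06 and Prf1 0.0 with the slide as a block, Prf1 became 0.02 with quantile normalization, and without single arrays Cd3e ranged from -0.41 to 0.31 and Prf1 from -0.15 to 0.04. The cause was not tested. Signal over background limits the folds of Cd8a, Cd160, Itgae and Foxp3 to bounds.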

Other observations

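Probes for the T cell receptor gamma chain, the receptor of many intraepithelial lymphocytes, were examined after their values were seen, because the transcript ENSMUST00000103558 was among those most like Cd3g. A low level in adenomas was thus part of how that transcript was chosen. The differences are given as a description, without p-values. The Tcrg-C probe at chr13:19444153-19444212 (mm9) ranged from -2.09 to -0.95 in small intestine and from -6.10 to -4.70 in adenomas, where 2 of 3 arrays were well above background, a fitted log2 difference of -3.67 (SE 0.431). A second Tcrg-C probe at chr13:19432102-19432161 ranged from -1.89 to -1.01 and from -7.01 to -4.58, well above background on 1 of 3 adenoma arrays, a difference of -3.94 (SE 0.626). Both Tcrg-C probes entered the fit through small intestine alone. In adenomas the ENSMUST00000103558 probe at chr13:19308428-19308487 differed by -3.82 from small intestine (SE 0.382) and by -2.41 from adjacent tissue (SE 0.188). The Tcrg-V1 probe differed by -1.28 from small intestine (SE 0.215). The Tcrg-V2 probe was not well above background on any array. These segments are near-identical copies in places, so a probe may read more than 1 of them.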
